A study of Homo sapiens with 12 samples.

Results

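The unfolded protein response and the integrated stress response were followed in human melanoma cells through 44 genes that were listed by role and found in the deposited count table by gene symbol. The table held 60656 gene IDs, of which 19636 had enough counts to be tested, and 44 of the 44 listed genes were among these. The list held 4 stress sensors, 8 transcription factors, 3 feedback and effector genes of the ATF4 and CHOP arm, 6 enzymes of serine, one-carbon and asparagine metabolism, 3 tRNA synthetases, 10 chaperones and cofactors of the endoplasmic reticulum, 5 genes of disulphide formation, 4 genes of ER-associated degradation and 1 antisense RNA. RNA-seq libraries came from the metastatic melanoma lines A2058, A375 and SKMEL-5, which are established cell lines, each grown at atmospheric oxygen (normoxia) or at 1% oxygen (hypoxia). Each of the 6 groups held 2 libraries, which the study calls biological duplicates, and no genotype or drug was added in any group. How long the cells were kept at 1% oxygen is not given in the sources used here.

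The unfolded protein response is the set of pathways by which a cell answers misfolded protein in the endoplasmic reticulum. PERK (EIF2AK3), IRE1 (ERN1) and ATF6 sense the load: PERK phosphorylates the initiation factor eIF2, IRE1 splices XBP1 mRNA, and ATF6 is cut to release a transcription factor. PERK shares its eIF2 target with other kinases, among them the amino acid sensor GCN2 (EIF2AK4), and this common branch, the integrated stress response, slows translation while the transcription factor ATF4 is made. ATF4 acts on genes of amino acid supply, on tRNA synthetases and on DDIT3, which encodes CHOP, whereas XBP1 and ATF6 act on chaperones, disulphide enzymes and degradation factors. Severe lack of oxygen is known to engage PERK, and several of these genes are also known targets of the hypoxia-inducible factors. Splicing of XBP1 and phosphorylation of eIF2 are not seen in gene counts.

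Library totals ran from 33831569 to 54202819 counts, and levels are given as TMM-scaled CPM, counts set against the size of the library. CA9, a standard hypoxia gene, was at 352 to 725 CPM in the 6 hypoxic libraries and at 0.0826 to 19.0 CPM in normoxia. The first normoxic library of each line held more CA9 than the second. The values were 19.0 and 0.0826 CPM in A2058, 4.91 and 0.805 CPM in A375, and 9.81 and 0.223 CPM in SKMEL-5. The normoxic duplicates were thus not alike, and the part of this in the members' values was not tested. The melanocyte genes TYR and MLANA had no counts in A375 and SKMEL-5, while SOX10, a marker of the melanocyte lineage, was at 765 to 1684 CPM in the 12 libraries. PMEL and DCT reached at most 1.24 and 2.64 CPM in A375 and SKMEL-5. MITF was at 161 to 539 CPM in A2058, 17.2 to 28.3 CPM in A375 and 91.3 to 173 CPM in SKMEL-5. S100B was at 16.8 to 231 CPM in the 12 libraries. In each line 1 hypoxic library stood apart from its duplicate, namely the second of A2058 and the first of A375 and of SKMEL-5 (hypoxia 2, hypoxia 1 and hypoxia 1). These libraries differed at least 2-fold from the normoxic mean of their line in 6574, 8099 and 7016 tested genes, against 2874, 1927 and 2255 for the other hypoxic library. They also held more mitochondrial ribosomal RNA (MT-RNR2 at 4305, 21319 and 14840 CPM against 1719, 549 and 1310 CPM), and more of the clock gene DBP (157, 348 and 129 CPM against 16.1, 7.32 and 11.2 CPM). In normoxia MT-RNR2 was at 28092 and 10125 CPM in A2058, 2250 and 2377 CPM in A375, and 5015 and 2373 CPM in SKMEL-5. The library of A2058 that stood apart was thus below its normoxic libraries, and those of A375 and SKMEL-5 were above theirs. The part of MT-RNR2 or DBP in the members' values was not tested. A375 and SKMEL-5 libraries of the same number also moved together: across genes, the log2 difference between the 2 hypoxic libraries correlated between these lines with r = 0.80, and that between the 2 normoxic libraries with r = 0.58, a description over genes, which are not independent. The test takes the lines as independent, so that its 3-line p-values leave this out. What these libraries share beyond their number was not tested.

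In the mean of the 3 lines, 1 of the 44 genes, ERO1A, rose in hypoxia and none fell, by edgeR's quasi-likelihood test with a Benjamini-Hochberg adjusted p under 0.05. Over all tested genes 0.978% were called higher and 0.143% lower. The fitted change was positive for 35 of the 44 genes and negative for 9, and their median was 0.44 (log2), beside 0.02 for all tested genes. At an unadjusted p under 0.05, 16 genes were higher (36.4%, against 12% of all tested genes) and 2 were lower (4.55% against 6.92%). DESeq2 called 10 higher (ASNS, ATF3, ATF4, DDIT3, DNAJB9, ERN1, ERO1A, NUPR1, SARS1 and VLDLR-AS1) and 2 lower (ATF5 and SDF2L1), where it called 6.26% and 2.44% of the genes to which it gave an adjusted p. Limma-voom called ERO1A alone (all tested genes: 0.779% higher, 0.127% lower). The 2 libraries of each hypoxic group often lay far apart.

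**Figure D1:**
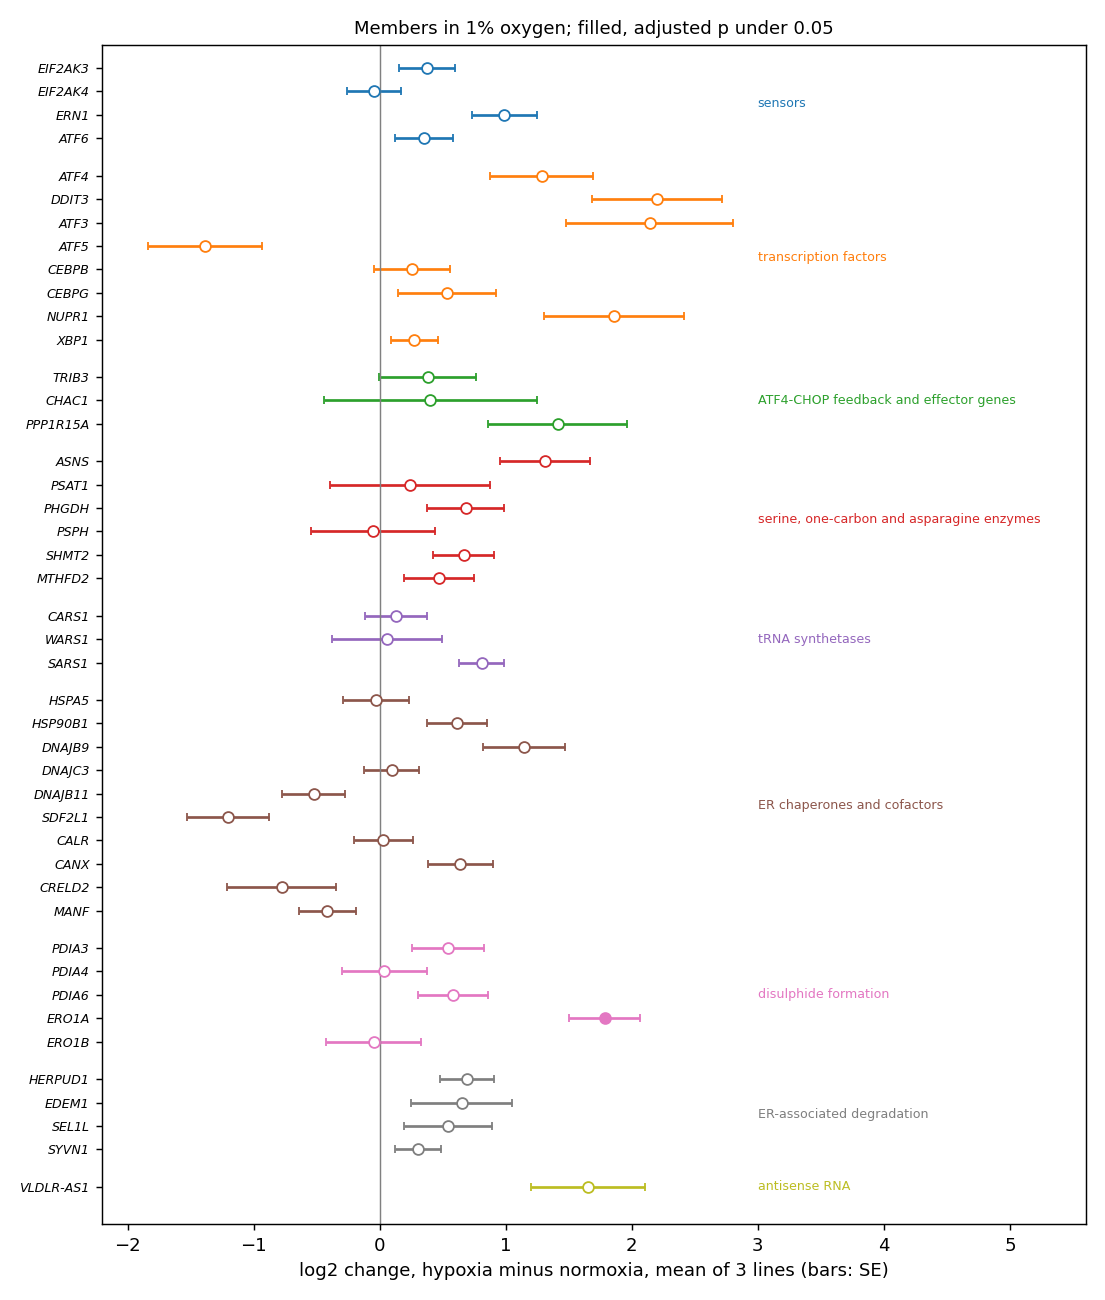
The horizontal axis is the log2 change from normoxia to 1% oxygen, averaged over the 3 lines, with bars of 1 standard error, and the 44 genes are listed by role. ERO1A at 1.79 is the only filled point, while DDIT3, ATF3 and NUPR1 have larger or like changes with wider bars.

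Within single lines none of the 44 genes was called in either direction. The share of all tested genes called was 0.00509% higher and 0.00509% lower in A2058, and 0% either way in the other lines. At an unadjusted p under 0.05, 5 genes were higher and none lower in A2058 (all tested genes: 5.62% and 3.54%). In A375 11 were higher and none lower (4.51% and 1.09%), and in SKMEL-5 9 were higher and 1 lower (4.44% and 2.1%). DESeq2 called ERO1A and SHMT2 higher in A2058, DDIT3 in A375, and ASNS and SARS1 in SKMEL-5, beside 1.33%, 0.542% and 0.548% of the genes with an adjusted p there, while limma-voom called none. No member differed between the lines in its response to hypoxia by the F test, nor did any other tested gene (0%). At an unadjusted p under 0.05, ASNS and CEBPB differed (4.55% of the members against 1.6% of all tested genes), and DESeq2 and limma-voom called none.

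In 6 members both hypoxic libraries lay above both normoxic libraries in each of the 3 lines: CANX, DDIT3, ERN1, ERO1A, HSP90B1 and SARS1. SDF2L1 lay below in each line in the same way. By this rule 4.86% of the 19636 tested genes lay higher and 2.79% lay lower. The members' shares were 6 and 1 of 44.

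Among the sensors, ERN1 was the one with the largest fitted change. In A2058 it was at 7.39 and 9.80 CPM in normoxia and 11.9 and 20.1 CPM in hypoxia. In A375 the values were 8.22 and 7.65 CPM against 14.2 and 12.8 CPM, and in SKMEL-5 4.37 and 6.84 CPM against 17.6 and 10.1 CPM. The 6 hypoxic libraries thus held more ERN1 than the normoxic libraries of their line, without overlap. The 3-line change of 0.99 ± 0.26 on the log2 scale (SE) was not called (edgeR, Benjamini-Hochberg adjusted p = 0.0917), and leaving out the 3 libraries that stood apart made it 0.65. EIF2AK3, ATF6 and EIF2AK4 had changes of 0.38, 0.35 and -0.05, none of them called. Per kilobase of exon, EIF2AK4 and ATF6 were the most abundant sensors at 10.2 and 9.99 CPM, and ERN1 the least at 1.00 CPM.

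ATF4 was among the most abundant members per kilobase of exon, at 257 CPM. In A2058 it was at 590 and 393 CPM in normoxia and 502 and 408 CPM in hypoxia, so the groups overlapped. In A375 normoxia it was at 235 and 376 CPM, and in hypoxia at 2243 CPM in the library that stood apart and 497 CPM in the other. In SKMEL-5 normoxia it was at 221 and 337 CPM, and in hypoxia at 1493 CPM in the library that stood apart and 451 CPM in the other. Both hypoxic libraries of A375 and of SKMEL-5 lay above normoxia, and the excess was several times larger in 1 of them. The log2 change (SE) was -0.11 ± 0.69 for A2058, 2.17 ± 0.72 for A375 and 1.80 ± 0.71 for SKMEL-5. The 3-line change of 1.29 was not called (edgeR, Benjamini-Hochberg adjusted p = 0.142) and was 0.46 without the libraries that stood apart.

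DDIT3 (chromosome 12) encodes CHOP, a factor of the late, pro-apoptotic phase of the response and the best known marker of it. In A2058 it was at 12.7 and 7.49 CPM in normoxia and at 14.9 and 12.8 CPM in hypoxia. In A375 it went from 10.3 and 12.4 CPM to 185 and 26.8 CPM, and in SKMEL-5 from 16.5 and 12.7 CPM to 192 and 28.3 CPM. No normoxic library reached the hypoxic ones of its line, but the gap in A2058 was small and the values of 185 and 192 CPM belong to the 2 libraries that stood apart. By line, the log2 change was 0.46 ± 0.86 for A2058, 3.22 ± 0.93 for A375 and 2.92 ± 0.91 for SKMEL-5 (SE). Over the 3 lines it was 2.2 ± 0.51, the largest of the 44, with an adjusted p of 0.0690 by edgeR (Benjamini-Hochberg). Leaving out the 3 libraries that stood apart made it 0.90 (adjusted p = 0.267), and leaving out A375 hypoxia 1 alone made it 1.55. The exons of DDIT3 overlap MARS1, on the opposite strand, over 355 of 1307 bases, and the strand setting of the counting is not given in the sources used here. MARS1, which encodes a tRNA synthetase, was at 104 and 124 CPM in the libraries where DDIT3 was at 185 and 192 CPM, below the other libraries of A375 and SKMEL-5.

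ATF3, a factor induced by ATF4, showed the same split more strongly. It was at 3.13 and 3.77 CPM in A2058 normoxia and at 6.61 and 1.41 CPM in A2058 hypoxia. In A375 it was at 11.2 and 11.1 CPM in normoxia and 235 and 16.1 CPM in hypoxia. In SKMEL-5 it was at 11.2 and 9.15 CPM in normoxia and 120 and 13.7 CPM in hypoxia. The high values were again those of A375 hypoxia 1 and SKMEL-5 hypoxia 1, whereas A2058 hypoxia 2 held the lowest level of the 12 libraries. The 3-line change of 2.14 ± 0.66 was not called (edgeR, Benjamini-Hochberg adjusted p = 0.136) and was 0.61 once those 3 libraries were left out.

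NUPR1, a small stress-induced chromatin protein, was at 10.6 and 12.2 CPM in A2058 normoxia and at 27.8 and 22.8 CPM in A2058 hypoxia. In A375 it was at 0.0169 and 0.332 CPM in normoxia, which stand for 1 and 14 counts, and at 0.331 and 1.05 CPM in hypoxia. In SKMEL-5 it was at 0.0896 and 0.304 CPM in normoxia and 0.525 and 1.54 CPM in hypoxia. Its level thus followed the line far more than the oxygen, and the groups overlapped in A375 alone. The change of 1.86 was not called (edgeR, Benjamini-Hochberg adjusted p = 0.128). XBP1 was at 50.2 to 95.2 CPM in normoxia and 61.6 to 97.1 CPM in hypoxia: 68.7 and 95.2 against 97.1 and 74.0 CPM in A2058, 50.2 and 63.6 against 78.1 and 80.3 CPM in A375, and 58.6 and 58.3 against 81.4 and 61.6 CPM in SKMEL-5. Its groups overlapped in A2058 alone, and the change of 0.28 ± 0.18 was not called. The remaining factors, none of them called, were ATF5 (-1.39), CEBPG (0.53) and CEBPB (0.25). ATF5 lay below the normoxic mean in each of the 6 hypoxic libraries, from -0.41 to -2.80 on the log2 scale.

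PPP1R15A, or GADD34, brings a phosphatase to eIF2 and so ends the block on translation. It was at 56.5 and 90.2 CPM in A2058 normoxia and 52.2 and 119 CPM in A2058 hypoxia. In A375 it was at 104 and 142 CPM in normoxia and 1776 and 143 CPM in hypoxia. In SKMEL-5 it was at 176 and 142 CPM in normoxia and 541 and 117 CPM in hypoxia. In each line the high hypoxic value belonged to the library that stood apart, and the other hypoxic library lay at the normoxic level or below it. The 3-line change of 1.41 ± 0.55 was not called (edgeR, Benjamini-Hochberg adjusted p = 0.207), and without the libraries that stood apart the sign turned, to -0.27. CHAC1, a glutathione-degrading enzyme downstream of ATF4, went the other way: in A2058, A375 and SKMEL-5 it was at 0.460, 1.92 and 3.60 CPM in the library that stood apart. The other hypoxic library held 21.0, 37.6 and 23.6 CPM. TRIB3, a pseudokinase that restrains ATF4, was also lower in them, at 17.3, 67.9 and 71.6 CPM against 97.03, 145 and 133 CPM.

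The enzymes that supply serine, glycine, one-carbon units and asparagine are classic ATF4 targets, and none of the 6 was called in the 3-line mean. Their median change was 0.57, from -0.06 for PSPH to 1.31 for ASNS. PSAT1, the serine-pathway transaminase, was at 308, 403 and 354 CPM in the hypoxic libraries that did not stand apart (the order is A2058, A375, SKMEL-5) and at 101, 30.7 and 32.8 CPM in those that did. In normoxia PSAT1 was at 111 to 251 CPM. PSPH, which makes serine in the last step of that pathway, was at 88.1, 58.9 and 53.2 CPM against 37.2, 7.60 and 10.6 CPM. So 1 hypoxic library of each line lay above its normoxic libraries and the other below them, for both enzymes. ASNS, asparagine synthetase, was scarce, with 1571 counts in all 12 libraries together. It was at 1.95 and 1.57 CPM in A2058 normoxia and 1.96 and 1.06 CPM in hypoxia, at 1.81 and 2.61 CPM against 11.9 and 4.11 CPM in A375, and at 0.694 and 1.09 CPM against 4.27 and 4.49 CPM in SKMEL-5. Its groups overlapped in A2058 alone. Of its 4455 exon bases 1985 are shared with another transcript on the same strand, which held 34 counts. The pseudogene ASNSP1 held 563 counts. The counts of ASNS depend on how shared reads were assigned, and its low level is uncertain. The tRNA synthetase SARS1 behaved more evenly. It was at 149 and 145 CPM in A2058 normoxia and 203 and 181 CPM in hypoxia. In A375 it was at 126 and 166 CPM against 282 and 284 CPM, and in SKMEL-5 at 120 and 151 CPM against 277 and 297 CPM. Its hypoxic libraries agreed closely within each line and did not overlap with normoxia, yet the change of 0.81 ± 0.18 missed the threshold (edgeR, Benjamini-Hochberg adjusted p = 0.0595). WARS1 was low in A375 hypoxia 1 and SKMEL-5 hypoxia 1, at 57.6 and 90.4 CPM, and higher in the duplicates, at 398 and 343 CPM.

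The binding site of ATF4 with its partners, the C/EBP-ATF response element, was searched as TGATGNAAN on both strands. The search covered the 300 bases around 1 start site per gene (250 before, 50 after), the first listed in RefSeq (GRCh38.p14). Other start sites of a gene were not searched, here or for the elements below. Of the 40 members with a promoter in the RefSeq table, 5 held a match (12.5%), beside 3.67% of all 27305 promoters. The matches are shown because 4 of these genes (ATF3, CHAC1, ASNS and CARS1) belong to the ATF4 arm, whose members lay on either side of normoxia in the libraries that stood apart. Each window runs 5′ to 3′ on the strand of the match, with the match in capitals.
ATF3 (chr1:212565208-212565232, plus strand): ggtcaggaTGATGGAAGgctgtcat
CHAC1 (chr15:40953253-40953277, minus strand): ggcaggagTGATGCAACggcagggg
ASNS (chr7:97872460-97872484, minus strand): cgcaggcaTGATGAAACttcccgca
CARS1 (chr11:3057410-3057434, plus strand): ctagaatcTGATGCAACcgccgccc
HERPUD1 (chr16:56931957-56931981, minus strand): gcacgggcTGATGCAACccgccgcg
CHAC1, CARS1 and HERPUD1 share the same 9 letters on the strand opposite to the gene. In A375 hypoxia 1 and SKMEL-5 hypoxia 1, ATF3 was at 235 and 120 CPM, above normoxia, and CHAC1 at 1.92 and 3.60 CPM, below it. A match is a description of the letters only.

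**Figure D2:**
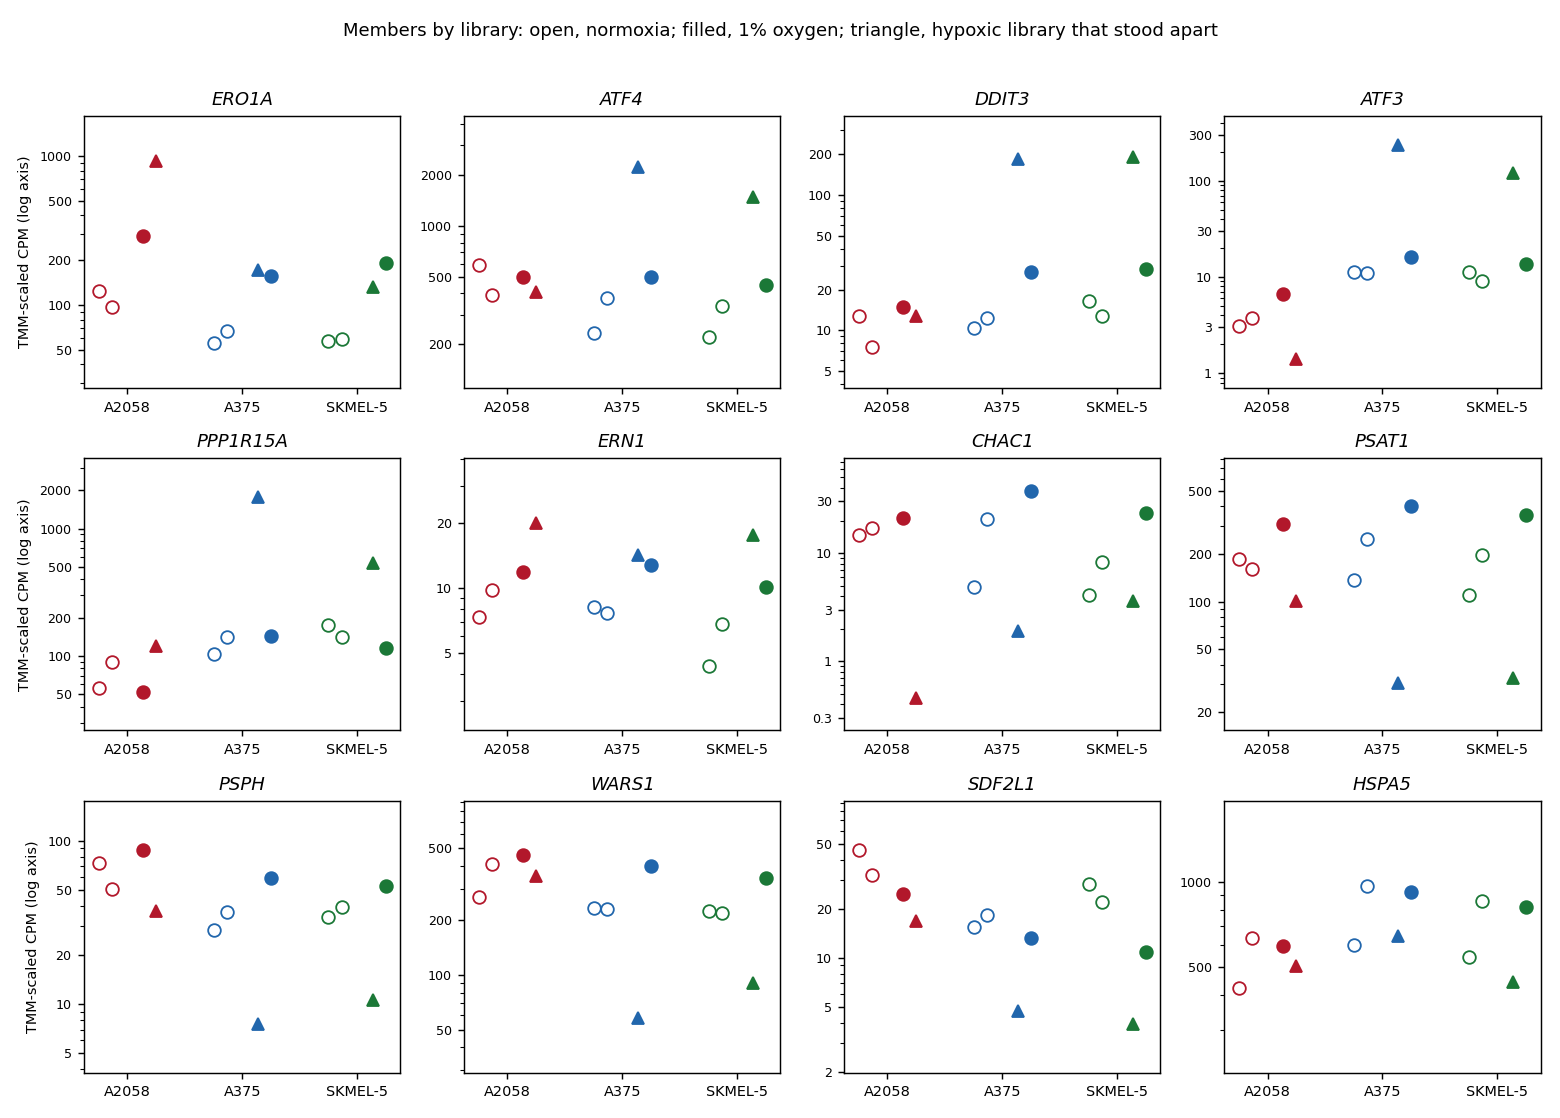
Each panel gives 1 gene in TMM-scaled CPM on a log axis, with open symbols for normoxia, filled symbols for 1% oxygen and triangles for the hypoxic library that stood apart in its line. ATF4, DDIT3, ATF3 and PPP1R15A have their highest points in the A375 and SKMEL-5 triangles, where PSAT1, PSPH, WARS1 and SDF2L1 have their lowest, while the filled ERO1A and ERN1 points lie above the open ones in each line.

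None of the 10 chaperones and cofactors was called in the 3-line mean: 5 changes were positive and 5 negative, and the median log2 change was 0.00. HSPA5 (BiP), the main chaperone of the endoplasmic reticulum and the usual readout of ATF6 and XBP1 activity, was at 424 and 634 CPM in A2058 normoxia and 594 and 508 CPM in hypoxia. It was at 598 and 972 CPM against 647 and 925 CPM in A375, and at 546 and 857 CPM against 443 and 819 CPM in SKMEL-5. Normoxic and hypoxic libraries overlapped in each line, and the change of -0.03 ± 0.26 was not called (edgeR, Benjamini-Hochberg adjusted p = 0.986). It was 0.19 without the libraries that stood apart.

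HSP90B1 (GRP94) and CANX, the calnexin that holds glycoproteins during folding, lay higher in hypoxia in each line without overlap. HSP90B1 was at 701 and 708 CPM against 954 and 1702 CPM in A2058, 694 and 725 CPM against 831 and 973 CPM in A375, and 423 and 679 CPM against 713 and 934 CPM in SKMEL-5. CANX was at 551 and 865 CPM against 1053 and 1725 CPM in A2058, 584 and 800 CPM against 1073 and 821 CPM in A375, and 405 and 777 CPM against 866 and 802 CPM in SKMEL-5. In several of these pairs the gap was small beside the spread between duplicates, for example between 800 and 821 CPM for CANX in A375. The changes of 0.61 and 0.64 were not called (edgeR, Benjamini-Hochberg adjusted p = 0.202 and 0.222). DNAJB9, a co-chaperone that restrains IRE1, had a change of 1.14 that was not called.

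SDF2L1, a small partner of HSPA5, was the member that lay lower in hypoxia throughout. It was at 46.3 and 32.5 CPM in normoxia and 24.9 and 16.8 CPM in hypoxia in A2058. The values were 15.6 and 18.4 CPM against 4.75 and 13.2 CPM in A375, and 28.6 and 22.2 CPM against 3.93 and 10.9 CPM in SKMEL-5. No line had an overlap, and the lowest value of each line came from the library that stood apart. The change of -1.21 ± 0.33 was not called (edgeR, Benjamini-Hochberg adjusted p = 0.101). CRELD2, DNAJB11 and MANF also had negative changes, of -0.78, -0.52 and -0.41, none of them called. CRELD2 was at 5.02 and 7.49 CPM in A375 hypoxia 1 and SKMEL-5 hypoxia 1 and at 26.3 to 41.8 CPM in the other libraries of these lines.

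The ER stress response element (CCAAT, any 9 bases, then CCACG), which binds NF-Y together with ATF6, is rare: 22 of 27305 promoters hold it (0.0806%), and 7 of them belong to the 40 members searched (17.5%). They are shown because these 5 chaperone and cofactor genes, with XBP1 and ERO1B, carry the textbook element of the ATF6 arm, and none of the 7 was called in the 3-line mean. Capitals mark the letters at both ends of the element, and each window runs 5′ to 3′ on the strand of the match.
HSPA5 (chr9:125241383-125241417, minus strand): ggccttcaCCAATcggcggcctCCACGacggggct
HSP90B1 upstream (chr12:103930208-103930242, plus strand): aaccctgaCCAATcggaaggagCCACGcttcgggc
HSP90B1 downstream (chr12:103930313-103930347, minus strand): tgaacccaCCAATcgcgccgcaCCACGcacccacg
CALR (chr19:12938376-12938410, minus strand): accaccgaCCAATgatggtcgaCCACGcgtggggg
CANX (chr5:179698770-179698804, plus strand): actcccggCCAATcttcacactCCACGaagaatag
CRELD2 (chr22:49918546-49918580, minus strand): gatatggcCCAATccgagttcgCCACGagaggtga
XBP1 (chr22:28800595-28800629, minus strand): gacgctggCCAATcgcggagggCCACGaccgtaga
ERO1B (chr1:236282175-236282208, plus strand): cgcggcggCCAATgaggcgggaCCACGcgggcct
The 3-line changes of the 7 genes ran from -0.78 for CRELD2 to 0.64 for CANX. The letters TGACGTGG, the XBP1-type element, were in none of the 40 promoters and in 0.795% of all promoters.

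ERO1A (chromosome 14) encodes the oxidase that passes electrons from protein disulphide isomerase to molecular oxygen, and it is a known target of hypoxia-inducible factor. In A2058 it was at 124 and 97.9 CPM in normoxia and at 291 and 931 CPM in hypoxia. In A375 it was at 55.6 and 67.4 CPM against 172 and 158 CPM, and in SKMEL-5 at 57.1 and 59.4 CPM against 132 and 192 CPM. Both hypoxic libraries of each line lay well above both normoxic libraries, and the 2 normoxic libraries of each line were close together. ERO1A rose by 1.79 ± 0.28 on the log2 scale over the 3 lines (SE), or 3.45-fold, with a Benjamini-Hochberg adjusted p of 0.0168 by edgeR. The change was 2.46 ± 0.50 for A2058, 1.43 ± 0.48 for A375 and 1.48 ± 0.48 for SKMEL-5. Without the 3 hypoxic libraries that stood apart it was 1.47 (adjusted p = 0.0526). With 1 library left out at a time it stayed between 1.44 and 1.99, and the call was lost without A2058 normoxia 2, A375 normoxia 1, A375 normoxia 2, SKMEL-5 normoxia 1 or SKMEL-5 normoxia 2 (adjusted p = 0.0623, 0.0854, 0.0887, 0.0660 and 0.0837). In bulk RNA, a rise in the level per cell and a shift in which cells were present cannot be told apart.

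The core of the hypoxia response element was searched as ACGTG or GCGTG on both strands. It was in 35 of the 40 promoters (87.5%) and in 48.4% of all promoters. The ERO1A promoter holds 3 cores, in capitals (RefSeq, GRCh38.p14, chr14:52695509-52695808, minus strand, from 250 bases before the start site to 50 bases after it), and is shown as that of the gene that was called.
ERO1A: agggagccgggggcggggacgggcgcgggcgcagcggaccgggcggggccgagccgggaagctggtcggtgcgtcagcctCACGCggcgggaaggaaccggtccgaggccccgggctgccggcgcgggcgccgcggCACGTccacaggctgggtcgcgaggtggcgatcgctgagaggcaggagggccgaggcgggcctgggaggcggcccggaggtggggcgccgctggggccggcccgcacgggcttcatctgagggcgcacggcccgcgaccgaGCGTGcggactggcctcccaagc
The first and second cores read on the opposite strand. TRIB3, XBP1, PPP1R15A, DNAJB9, HERPUD1 and HSP90B1, which were not called by edgeR in the 3-line mean, hold more cores. Their changes were positive, from 0.28 for XBP1 to 1.41 for PPP1R15A. SDF2L1, CRELD2 and DNAJB11, whose changes were negative, hold the core as well. As with the other elements, a match describes the letters only.

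Of the other disulphide genes, the isomerases PDIA3, PDIA6 and PDIA4 had changes of 0.54, 0.58 and 0.04, and the second oxidase ERO1B of -0.05; none was called. PDIA3 and PDIA6 reached their highest levels in A2058 hypoxia 2, at 1027 and 953 CPM. In A375 hypoxia 1 and SKMEL-5 hypoxia 1 PDIA4 was at 96.5 and 91.9 CPM, below the 165 to 304 CPM of the other libraries of these lines. The 4 genes of ER-associated degradation (HERPUD1, EDEM1, SEL1L and SYVN1) had changes of 0.69, 0.65, 0.54 and 0.30, none of them called. HERPUD1, which helps assemble the degradation complex, was highest in A375 hypoxia 1 and SKMEL-5 hypoxia 1, at 134 and 97.7 CPM. EDEM1, which hands misfolded glycoproteins over for degradation, was lowest there, at 53.6 and 43.5 CPM against 227 and 180 CPM in the other hypoxic libraries. VLDLR-AS1 had 447 counts in all libraries, at 0.190 to 1.76 CPM, and its change of 1.65 was not called. It overlaps VLDLR on the opposite strand over 738 of 5989 exon bases. VLDLR itself, a lipoprotein receptor with 28729 counts, rose by 2.18 ± 0.32 (edgeR, Benjamini-Hochberg adjusted p = 0.0120), and without the strand setting the reads of the pair cannot be told apart.

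In the hypoxic libraries that did not stand apart, most members lay modestly above the normoxic mean of their line. Of the 44 genes, 35 (79.5%) were above the normoxic mean in each of the 3 lines, beside 26.6% of all tested genes. A library above the mean of 2 normoxic libraries need not lie above both. In A375 and SKMEL-5 these are the second hypoxic libraries. For HSPA5 and CALR they lay below the second normoxic library of the line, and for ERO1A and SARS1 above both normoxic libraries. The part of differences between normoxic duplicates in this count was not tested. The 2 genes ATF5 and SDF2L1 were below it in each line (4.55%, beside 19.2% of all tested genes). The median of the members was 0.58 on the log2 scale, beside 0.03 for all tested genes. In the libraries that stood apart, 12 members were above the normoxic mean in each line (27.3%, beside 25.5% of all tested genes) and 10 were below it (22.7% beside 27.4%). These counts rest on 1 library per line and carry no test, and the fit without the libraries that stood apart called no member.

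The difference between the 2 hypoxic libraries of a line split the members. In both A375 and SKMEL-5, 5 members were at least 2-fold higher in the library that stood apart: ATF4, DDIT3, ATF3, PPP1R15A and DNAJB9. A further 11 were at least 2-fold lower there: CHAC1, PSAT1, PSPH, WARS1, NUPR1, SDF2L1, CRELD2, PDIA4, EDEM1, SEL1L and VLDLR-AS1. The background was 11% of all tested genes higher and 12.6% lower, so 5 and 11 of 44 were close to it upward and above it downward. With A2058 included, PPP1R15A was higher and CHAC1, PSAT1 and PSPH lower in each line (all tested genes: 3.71% and 4.95%). A2058 hypoxia 2 differed from the others in the factors: ATF3 at 1.41 CPM, CEBPG at 5.66 CPM and ATF5 at 2.85 CPM were at their lowest of the 12 libraries there, as was TRIB3 at 17.3 CPM. The members of the ATF4 arm thus were not all high in the same libraries. ATF4 and DDIT3 were highest in A375 hypoxia 1 and SKMEL-5 hypoxia 1, where PSAT1, PSPH and CHAC1 lay below normoxia. ASNS and SARS1 lay above normoxia in these 2 libraries, by 2.43 and 2.23 for ASNS and by 0.96 and 1.04 for SARS1 on the log2 scale. At least 2-fold differences between duplicates were found for 11 of the 44 genes in the hypoxic pair of A2058 (25%, beside 25.7% of all tested genes). The count was 23 in that of A375 (52.3% beside 41.9%) and 19 in that of SKMEL-5 (43.2% beside 31.2%). In each normoxic pair it was 3 (6.82%, beside 24.9%, 12.7% and 20% of all tested genes for A2058, A375 and SKMEL-5).

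**Figure D3:**
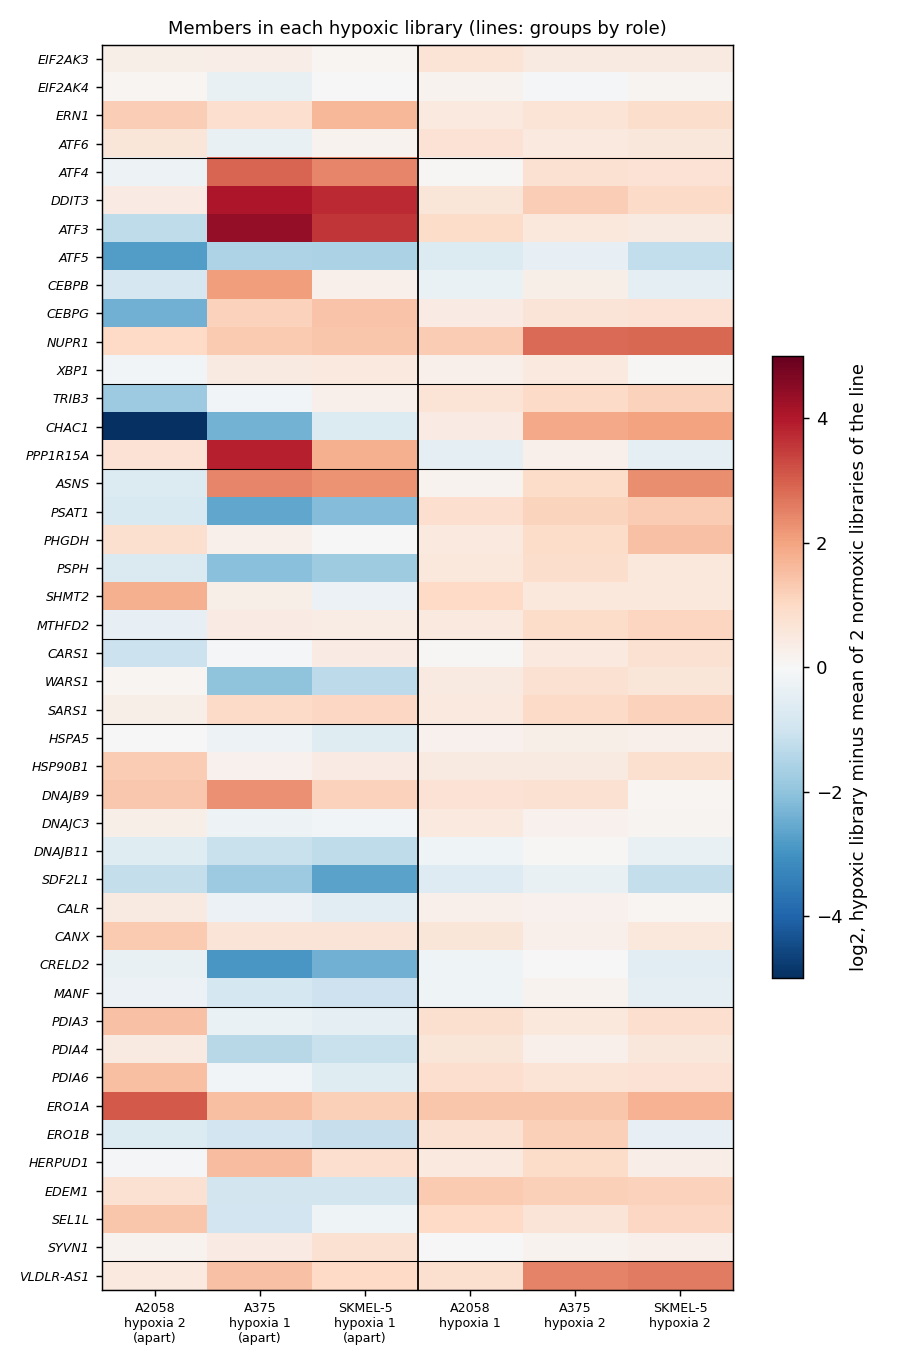
Colour gives the log2 level of each of the 44 genes in each hypoxic library minus the mean of the 2 normoxic libraries of its line, with red above and blue below, in columns of the 3 libraries that stood apart (left) and the 3 others (right). On the right 35 genes are above 0 in each line, whereas on the left ATF4, DDIT3 and ATF3 are high in A375 and SKMEL-5 beside low CHAC1, PSAT1 and CRELD2.

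Across both oxygen levels, 7 members were higher in A2058 than in the mean of A375 and SKMEL-5, and 3 were lower. The background was large: 17.2% of all tested genes were called higher and 16.5% lower, so 7 of 44 was near the background and 3 of 44 below it. NUPR1 had the largest difference, 5.43 ± 0.57 on the log2 scale (edgeR, Benjamini-Hochberg adjusted p = 3.5e-05). ERO1A was higher by 1.40 ± 0.28 (adjusted p = 0.00279). CRELD2, SDF2L1, PDIA4, DNAJB11 and SHMT2 were higher by 0.71 to 1.25. SHMT2, the mitochondrial serine hydroxymethyltransferase, was at 350.5 and 312 CPM in A2058 normoxia and at 666 and 1143 CPM in A2058 hypoxia. In A375 it was at 270.5 and 402 CPM against 403 and 471 CPM, and in SKMEL-5 at 251 and 302 CPM against 227 and 396 CPM. Only the hypoxic libraries of A2058 stood clear of those of the other lines for SHMT2.

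CRELD2 was at 79.5, 65.8, 62.0 and 55.8 CPM in A2058 (normoxia first), at 35.5, 41.8, 5.02 and 38.9 CPM in A375, and at 37.7, 40.9, 7.49 and 26.3 CPM in SKMEL-5. DNAJB11, a co-chaperone of HSPA5, was at 61.0, 68.6, 56.0 and 42.0 CPM in A2058 (normoxia first), at 34.5, 45.7, 18.3 and 41.5 CPM in A375, and at 39.9, 41.4, 17.1 and 31.4 CPM in SKMEL-5. PDIA4, a disulphide isomerase, was at 319, 395, 538 and 489 CPM in A2058, at 243, 263, 96.5 and 304 CPM in A375, and at 165, 240.0, 91.9 and 291 CPM in SKMEL-5. CRELD2 and PDIA4 therefore did not overlap between A2058 and the other lines, and DNAJB11 did. ATF3, DDIT3 and PPP1R15A were lower in A2058, by -3.06, -1.65 and -1.82 on the log2 scale (edgeR, Benjamini-Hochberg adjusted p = 0.0119, 0.0433 and 0.0441). Limma-voom called none of these 3 lower. Without the libraries that stood apart these were -1.37, -0.59 and -1.09, and DDIT3 was no longer called (adjusted p = 0.140). SHMT2 was not called without them either (0.40, adjusted p = 0.270), nor with a replicate block within each line (0.72, adjusted p = 0.0552). Leaving out 1 library at a time kept the calls of NUPR1 and ERO1A in the 12 cases, whereas each of the other 8 members lost its call at least once.

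**Figure D4:**
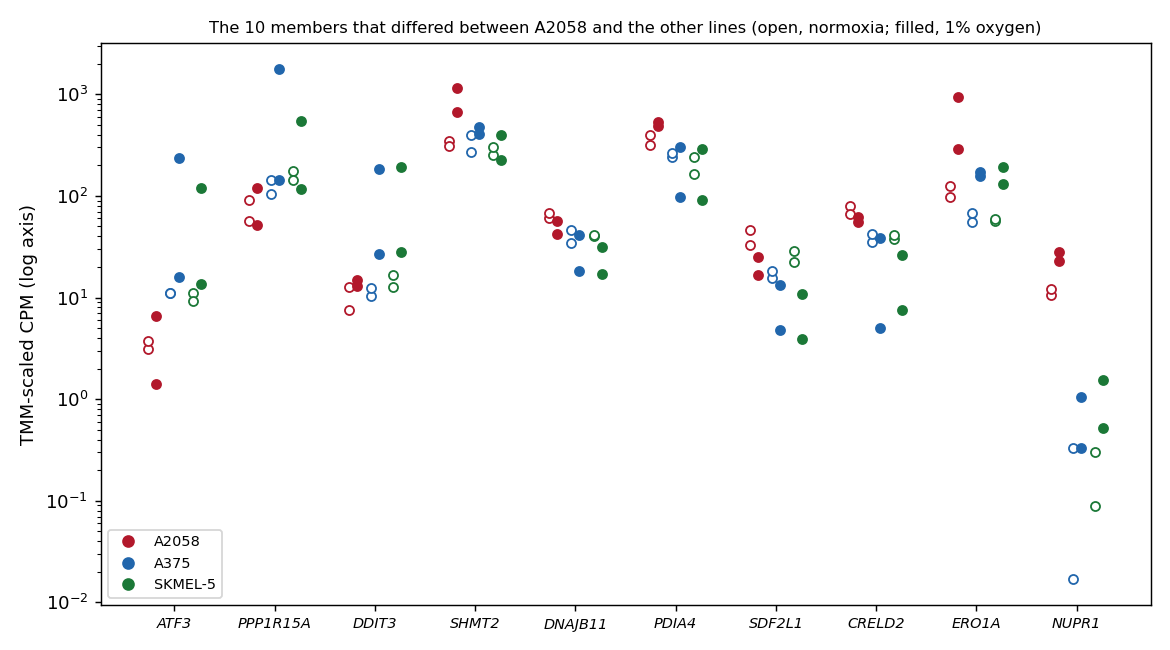
The 10 members that differed between A2058 and the other lines are shown as TMM-scaled CPM on a log axis, with 1 point per library, open for normoxia and filled for 1% oxygen. NUPR1 lies at 10.6 to 27.8 CPM in A2058 and under 2 CPM in the others, while the A375 and SKMEL-5 points of ATF3, DDIT3 and PPP1R15A are spread by 1 high hypoxic library each.

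Beyond the 44 genes, 101 other genes of these pathways were tested. In the 3-line mean, 0.978% of all tested genes were called higher and 0.143% lower. At an unadjusted p under 0.05, 12% of all tested genes were higher and 6.92% lower. Of 37 other ATF4 targets, 4 rose and none fell in the 3-line mean, with a median change of 0.47, beside 0.02 for all tested genes. They were STC2 (2.75), VLDLR (2.18), VEGFA (1.82) and DDIT4 (1.64), with adjusted p-values of 0.0115, 0.0120, 0.0115 and 0.0161 by edgeR (Benjamini-Hochberg). VEGFA, the angiogenic growth factor, and DDIT4, an inhibitor of mTOR, are also known targets of the hypoxia-inducible factors. None of the 50 other XBP1 and ATF6 targets was called (13 at an unadjusted p under 0.05, median 0.22). Among the smallest p-values were those of OS9 and P4HB, with changes of 1.03 and 1.04. OS9 acts in degradation, and P4HB is the main protein disulphide isomerase. None of the 14 other genes of eIF2, its kinases, exchange factor and phosphatases was called either (6 at an unadjusted p under 0.05, median -0.02). EIF2B3 and EIF2B1, subunits of the exchange factor, had changes of -0.70 and -0.55, and the adaptor NCK1 of 0.94.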

How the data were processed

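RNA-seq counts of 12 libraries in 6 groups of 2 were used. The authors deposited raw counts per gene, with no normalization. Per the submitters' processing notes, bcl2fastq 2.20, Trim Galore 0.6.1, STAR 2.5.0a and GRCh38 were used. How reads were assigned to genes (tool, strand setting, annotation) is not given in the sources used here. Columns were matched to samples by title, and gene IDs to symbols with the version ignored. Positions and exon lengths came from GENCODE 29, promoters from RefSeq (GRCh38.p14).

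The analysis used edgeR 4.0.16 in R 4.3.3. Its filterByExpr (minimum count 10, minimum total count 15) kept 19636 genes, libraries were scaled by TMM, and 1 quasi-likelihood fit took the 6 group means of the 12 libraries together (6 residual degrees of freedom, common biological coefficient of variation 0.453). Benjamini-Hochberg adjustment ran across the tested genes, with calls under 0.05. The p-values take libraries as independent, and log2 levels used a prior count of 2. A library with 0 counts of a gene allows up to 3, or 0.0553 to 0.0887 CPM, for counting error only. DESeq2 1.42.0, limma-voom 3.58.1, other filters, a replicate block and left-out libraries were alternatives. Both duplicates of each group differed by more than counting noise. The procedure was checked on simulated counts.

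The members, lists and tests were chosen with earlier results of these data known, as was the naming of the libraries that stood apart. Values in each library are printed for members called (in the 3-line mean, a line or between lines), members without overlap in any line, ATF4, DDIT3, HSPA5, XBP1 and the 5 members of at least 5 CPM with the largest change. Of other pathway genes, up to 3 per list are named (those called, otherwise the smallest p), and VLDLR is named beside its antisense RNA. A gene that this rule would name is not reported here. ASNS, PSAT1, PSPH, CHAC1, WARS1 and other members shown for the contrast between hypoxic libraries were chosen after their values were seen.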

Additional observations from a re-analysis of the deposited data

Results flagged for a closer look

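CEBPB, a bZIP factor that partners ATF4 and CHOP, went in opposite directions in A2058 and A375. Its change from normoxia to hypoxia was -0.57 in A2058, where both hypoxic libraries (52.2 and 37.4 CPM) lay below both normoxic ones (73.2 and 59.7 CPM), and 1.44 in A375, where both (263 and 75.6 CPM) lay above (57.3 and 67.4 CPM). By edgeR's F test of equal changes across the lines, fitted across all genes, the Benjamini-Hochberg adjusted p was 1 (0.0494 unadjusted), so the difference does not pass the threshold. The value of 263 CPM came from A375 hypoxia 1, a library that stood apart.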

How the results depend on the processing

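With 2 libraries per group, the calls moved with the model and the libraries; the cause was not tested. Against 1 higher and 0 lower members in the 3-line mean, DESeq2 and the fit with no low-count filter each gave 10 higher and 2 lower. Of the genes with an adjusted p, DESeq2 called 6.26% higher and 2.44% lower, and the fit with no low-count filter 3.65% and 1.31%. The count of higher members was 0 without the libraries that stood apart, with the replicate block within each line, in the mean of A2058 and A375, and in the mean of A2058 and SKMEL-5. Leaving out 1 library gave 0 to 8 higher (8 without A375 hypoxia 2) and 0 to 2 lower (CRELD2 and SDF2L1, also without A375 hypoxia 2). Within lines, against 0, DESeq2 gave 2, 1 and 2 higher in A2058, A375 and SKMEL-5, no low-count filter 1, 4 and 3, and leaving out a library 0 to 1 in A2058 (ERO1A, without A2058 hypoxia 1). With no low-count filter 3 members differed between lines. Of all genes in that fit, 0.222% differed, and 0.81%, 0.958% and 0.832% were called higher in A2058, A375 and SKMEL-5. For A2058 against the others, leaving out a library gave 2 to 10 higher (against 7) and 0 to 5 lower (against 3); lower members were 5 by DESeq2, 1 by limma-voom (ATF5, so ATF3, DDIT3 and PPP1R15A were not called there) and 5 with no low-count filter. Of all genes, 19.8% were called lower in A2058 than in the others by DESeq2, 16.5% by limma-voom and 10.1% with no low-count filter. In the 3-line mean ERO1A kept its direction in each alternative, from 1.44 to 1.99.

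In the main fit, replicate numbers were not taken to pair normoxic with hypoxic libraries within a line. Their deviations correlated at -0.30 (A2058), 0.23 (A375) and 0.26 (SKMEL-5), which does not settle whether the libraries were paired. The replicate block took ERO1A to 1.71 (adjusted p = 0.0540) and SHMT2, in A2058 against the others, to 0.72 (0.0552). Of 880 gene and setting pairs in the 3-line mean, 62 turned sign, in 15 members. Without the libraries that stood apart: EIF2AK4 0.0173, CEBPB -0.21, PPP1R15A -0.27, PSPH 0.61, HSPA5 0.19, ERO1B 0.45. With the replicate block or limma-voom: CHAC1 -0.57 and -0.50, PSAT1 -0.39 and -0.39, WARS1 -0.23 and -0.24, PDIA4 -0.10 and -0.11. In A2058 and SKMEL-5 alone: EIF2AK4 0.0390, CEBPB -0.34. In A2058 and A375 alone: PSPH 0.0220, CARS1 -0.11, HSPA5 0.0303, ERO1B 0.31. Leaving out 1 library: CALR -0.0942 to 0.12, CARS1 -0.10 to 0.29, CEBPB -0.13 to 0.46, CEBPG -0.14 to 0.82, CHAC1 -1.11 to 0.87, DNAJC3 -0.0267 to 0.26, EIF2AK4 -0.16 to 0.11, ERO1B -0.53 to 0.19, HSPA5 -0.20 to 0.10, PDIA4 -0.32 to 0.23, PSAT1 -0.70 to 0.53, PSPH -0.77 to 0.21, TRIB3 -0.19 to 0.64, WARS1 -0.60 to 0.32.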
